A study of Mus musculus with 9 samples.

Results

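Sphingosine 1-phosphate (S1P) metabolism and signalling is followed here through 8 of the 54059 genes in the deposited expression table: the sphingosine kinases Sphk1 and Sphk2, the S1P lyase Sgpl1, the S1P phosphatases Sgpp1 and Sgpp2, the receptors S1pr1 and S1pr2, and the glucosylceramide synthase Ugcg. The genes were chosen by symbol as members of the pathway, with no threshold on their values but with earlier results of these data known. Among those earlier results, the study had already reported Sphk1 as lower with SHP099, so its fall below is not a new result. Each symbol matched 1 Ensembl identifier of GENCODE M21, an annotation of the mouse genome build GRCm38. RNA came from adherent peritoneal macrophages of C57BL/6 mice, taken 3 days after 1 ml of starch broth had been given into the peritoneal cavity, and the labels give an age of 8 weeks for every mouse, where the study's methods give 8 to 10 weeks. One group of 3 libraries came from wild-type mice and another 3 from mice labelled SHP2lyz2-/-, called M-Shp2-/- in the study, in which cre driven by the Lyz2 promoter deletes the floxed Shp2 alleles (Shp2 fl/fl) in monocytes, mature macrophages and granulocytes. The last 3 came from wild-type macrophages pretreated for 2 h with 10 µM SHP099, an allosteric inhibitor of the phosphatase SHP2. By the study's account the cells of all 9 libraries were stimulated with imiquimod (IMQ), an agonist of TLR7, for 4 h, with a dose of 10 µg/ml stated for the SHP099 comparison and none for the M-Shp2-/- libraries, so every value below is a level under IMQ and none comes from unstimulated cells. The labels do not say whether the libraries of a group came from separate animals, and p-values measure only the spread between these samples. Each library's depth, recovered from its values, lay between 39843145 and 50981136 reads. Group medians were 44372699 (wild type), 43183072 (M-Shp2-/-) and 43837276 reads (SHP099).

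Sphingosine, released from ceramide by ceramidases, is phosphorylated by the sphingosine kinases to S1P, which acts inside the cell and, once exported, on a family of G protein-coupled receptors. S1P phosphatases return it to sphingosine, S1P lyase cleaves it irreversibly, and glucosylceramide synthase draws ceramide away into glycosphingolipids. S1P receptors steer the migration of lymphocytes, endothelial cells and macrophages, and Sphk1 is known as the inducible kinase of the pair while Sphk2 is more evenly expressed.

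Shp2 is encoded by Ptpn11 (ENSMUSG00000043733). Its level, in fragments per kilobase of transcript scaled to sequencing depth (FPKM), was 45.8, 44.0 and 39.99 in the wild-type libraries, 18.6, 17.8 and 18.9 in the M-Shp2-/- libraries and 43.0, 42.1 and 39.6 in the SHP099 libraries. The M-Shp2-/- libraries thus held 42.5% of the wild-type mean, below every library of the other groups, while the SHP099 and wild-type libraries overlapped. The difference of mean log2(FPKM + 1) between M-Shp2-/- and wild type was -1.19 (95% confidence interval -1.42 to -0.96, limma, Benjamini-Hochberg adjusted p = 0.0168), with an adjusted p of 0.00186 to 0.196 over 15 alternatives, at most 0.05 in 9 of them. A gene-level value also counts reads of exons that the deletion leaves in place.

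All 7 macrophage markers examined had a mean FPKM of at least 1. Lyz2, the most abundant of them, was at 7440.3, 10228 and 7951 FPKM in wild type, at 4863, 4743 and 5407 FPKM in M-Shp2-/- and at 9348, 10279.9 and 10715 FPKM in the SHP099 group. Markers of resident large peritoneal macrophages were at 2.42 to 4.37 FPKM for Icam2, 0.380 to 2.97 FPKM for Gata6 and 0.139 to 1.63 FPKM for Timd4 over the 9 libraries. M-Shp2-/- library 3 stood apart: its log2 values correlated with those of its group at r = 0.967 and 0.954 across genes, against 0.992 between the other libraries of that group, 0.974 to 0.984 within wild type and 0.988 to 0.991 within the SHP099 group. It also held the highest sum of the 6 fibroblast and mesothelial markers, whose sums were 41.5, 198 and 24.97 FPKM in wild type, 90.1, 31.9 and 391 FPKM in M-Shp2-/- and 250.2, 91.4 and 70.9 FPKM in the SHP099 group, with Col1a1 as the most abundant marker. Where leaving it out changes a call on the 8 genes, both values are given. In bulk RNA, fewer cells of a type and less RNA per cell cannot be told apart.

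The levels of the 8 genes spanned a wide range on this per-length scale. Averaged over the 9 libraries, Sgpl1 was highest at 630.2 FPKM, followed by Ugcg at 238 FPKM and Sphk2 at 31.8 FPKM. Then came S1pr2 at 18.8 FPKM, Sphk1 at 16.6 FPKM, Sgpp1 at 13.4 FPKM and S1pr1 at 3.24 FPKM, with Sgpp2 last at 0.0149 FPKM. Among neighbours in this order, the ranges over libraries overlapped only for S1pr2 and Sphk1, where S1pr2 was higher in 6 of 9 libraries, and for Sphk1 and Sgpp1, where Sphk1 was higher in 5 of 9. The order depends on the transcript length used: when FPKM were rescaled to each gene's longest transcript, Sgpp1 moved to rank 4, ahead of S1pr2 and Sphk1.

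**Figure D1:**
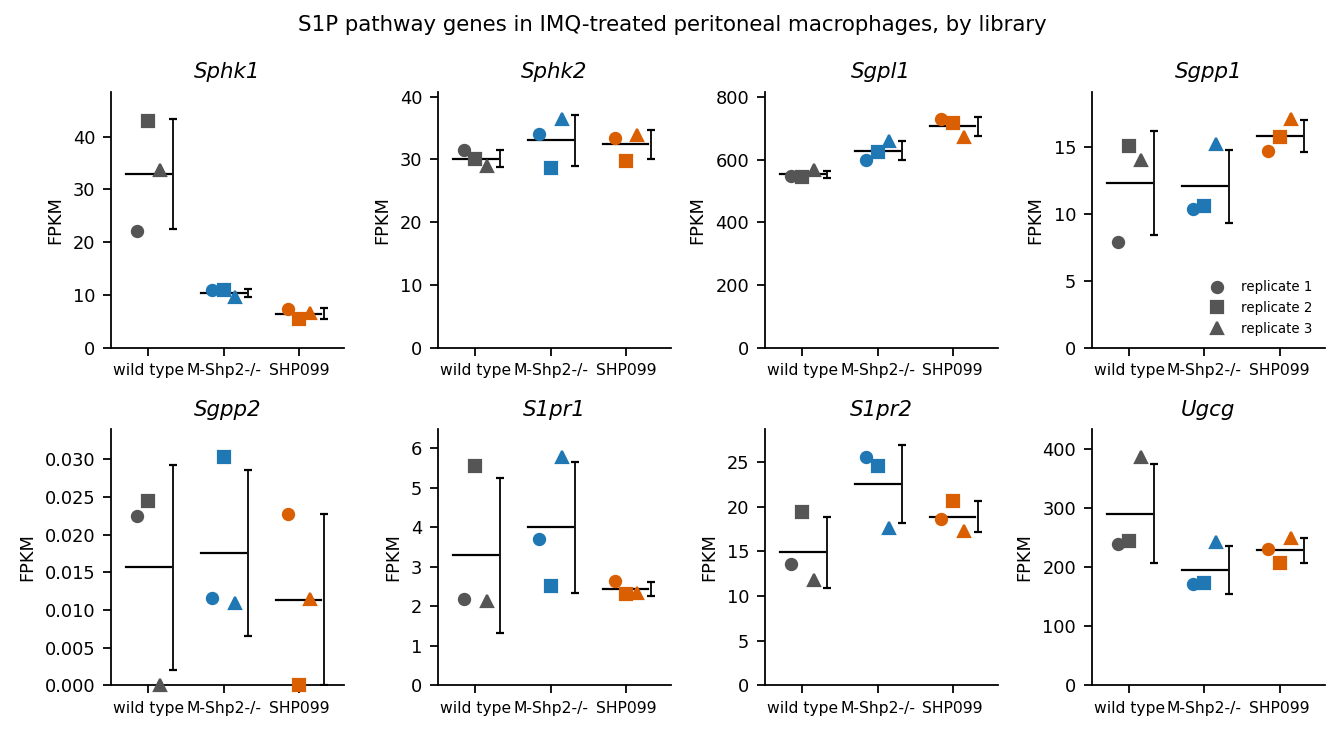
FPKM of the 8 genes (y axes, linear, from 0) in the 3 groups of 3 libraries each, all under IMQ. Lines are group means with the SD; Sphk1 is at 22.1 FPKM or more in wild type and at 10.9 FPKM or less in the other groups, and Sgpl1 is at 567 FPKM or less in wild type and at 673 FPKM or more with SHP099.

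Sphk1 (ENSMUSG00000061878, chr11:116530925-116536674, plus strand, GRCm38) encodes the kinase that makes S1P mainly in the cytosol and at the plasma membrane. Its level was 22.1, 42.9 and 33.6 FPKM in the wild-type libraries, 10.8, 10.9 and 9.57 FPKM in the M-Shp2-/- libraries and 7.37, 5.42 and 6.60 FPKM in the SHP099 libraries, from 329 to 3334 reads. The groups formed 3 separate tiers, with every M-Shp2-/- library below every wild-type library and every SHP099 library below both. The means were 32.9 ± 10.4, 10.4 ± 0.750 and 6.46 ± 0.983 FPKM (SD, n = 3 each), so that M-Shp2-/- cells held 31.8% and SHP099-treated cells 19.7% of the wild-type mean.

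With SHP099, Sphk1 fell by 2.14 on the log2(FPKM + 1) scale (95% confidence interval -2.70 to -1.59, SE 0.24), at a limma adjusted p of 0.00858. That is 4.41-fold in FPKM + 1 averaged as logs, which is not the ratio of the mean FPKM given above. Only 27 of the 11450 tested genes had a lower log2 difference in that comparison. The adjusted p ranged from 0.00323 to 0.0629 over 14 alternatives and was at most 0.05 in 12 of them; it was 0.0563 without SHP099 library 2 and 0.0629 with no filter on low FPKM. By quantitative PCR, the study also reports lower Sphk1 in IMQ-stimulated peritoneal macrophages pretreated with SHP099. The stricter rule, an adjusted p of at most 0.005 with an absolute log2 difference of at least 1, was met when all 9 libraries were fitted together (0.00323). These cut-offs are the study's, which applied them to DESeq on counts, so limma on FPKM is a different test. In M-Shp2-/- macrophages the difference was -1.52 (95% confidence interval -2.07 to -0.96) with an adjusted p of 0.192, and the adjusted p stayed between 0.0617 and 0.787 over 15 alternatives. Although only 39 genes had a lower log2 difference, Sphk1 did not pass the test there. Directly compared, M-Shp2-/- and SHP099 libraries differed by 0.62 (95% confidence interval 0.31 to 0.93, adjusted p = 0.230). Without M-Shp2-/- library 3 that difference was 0.68 with an adjusted p of 0.0181, the lowest of a range from 0.0181 to 0.714 over 14 alternatives. Both comparisons with wild type use the same wild-type libraries and are not independent.

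Sphk2 (ENSMUSG00000057342, chr7:45709467-45718002, minus strand), the second kinase, found in the nucleus and on mitochondria as well as in the cytosol, was at 31.5, 30.0 and 28.9 FPKM in wild type, at 34.0, 28.6 and 36.4 FPKM in M-Shp2-/- and at 33.5, 29.8 and 33.9 FPKM with SHP099. The libraries of the groups overlapped in all 3 comparisons. The difference was 0.12 for M-Shp2-/- (95% confidence interval -0.15 to 0.40) and 0.10 for SHP099 (95% confidence interval -0.11 to 0.31), and median-of-ratios scaling turned the signs to -0.03 and -0.04.

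The 2 kinases therefore made up different parts of the kinase RNA. Sphk1 supplied 41.2%, 58.9% and 53.8% of the summed FPKM of Sphk1 and Sphk2 in the wild-type libraries, 24.2%, 27.6% and 20.8% in the M-Shp2-/- libraries and 18.1%, 15.4% and 16.3% in the SHP099 libraries. The group means were 51.3% ± 9.09, 24.2% ± 3.38 and 16.6% ± 1.35 (SD), without overlap between groups. These shares depend on the transcript length assumed: on each gene's longest transcript they were 28.2%, 44.5% and 39.5%, then 15.2%, 17.6% and 12.8%, then 11.0%, 9.27% and 9.84%, in the same order of groups but with Sphk2 the more abundant kinase in all 9 libraries. On the mean length, summed kinase FPKM averaged 63.0 in wild type, 43.5 in M-Shp2-/- and 38.8 with SHP099, and Sphk2 was the more abundant kinase in all 6 libraries of the latter groups.

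**Figure D2:**
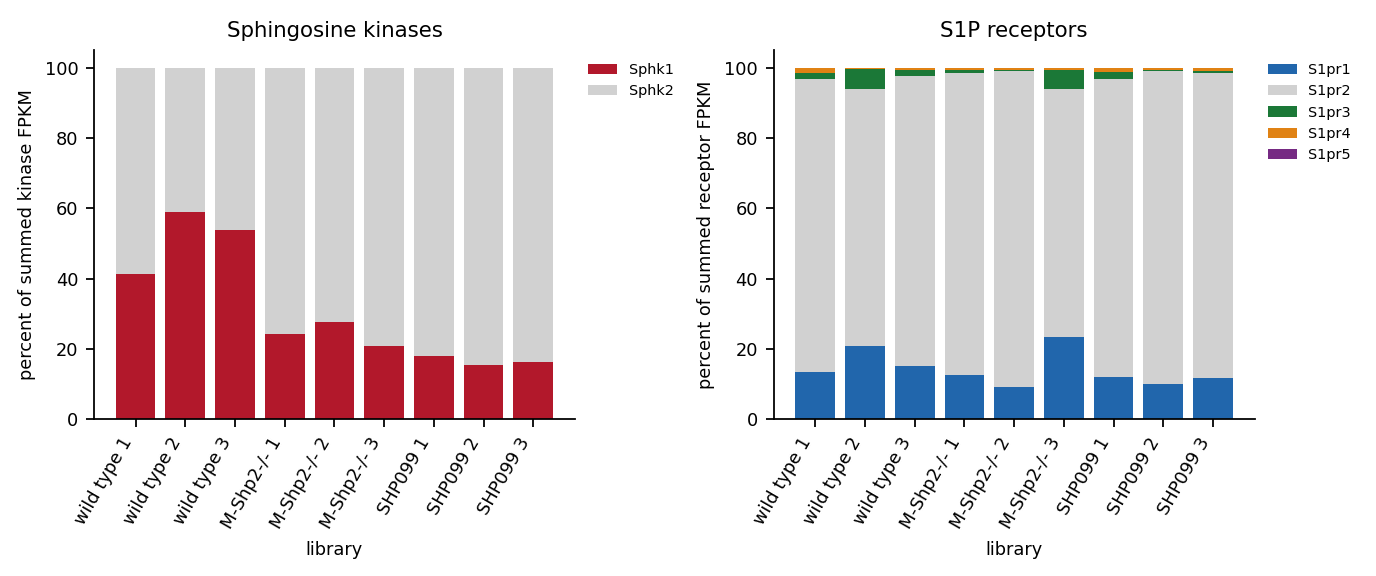
Percent, on mean transcript lengths, of the summed kinase FPKM (left) and of the summed FPKM of 5 S1P receptors (right) in each of the 9 libraries, on the y axes. Sphk1 supplies 41.2% to 58.9% of kinase FPKM in wild type and at most 27.6% elsewhere, while S1pr2 supplies at least 70.7% of receptor FPKM in every library.

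Promoter windows, from 250 bases before to 50 bases after a start site, were read from RefSeq start sites on the build GRCm38.p6, and 7 of the 8 genes matched. S1pr1 has no entry. Sphk1 has 5 windows and Sphk2 has 2, and each of the other 5 genes has 1. The windows were searched on both strands for AP-1 (TGANTCA), CRE (TGACGTCA), the NF-kB consensus, EGR, the GC box (GGGCGG) and the E-box (CACGTG). Sphk1 windows 2 and 3 share an AP-1 match at bases -50 and -124 from their start sites, which lies in an annotated exon of Sphk1, and windows 4 and 5 share an E-box match at bases -95 and -102. Sphk2 window 2 holds 3 GC boxes, and its window 1, of which 283 bases lie in exons of Rpl18 on the opposite strand, holds a GC box and a CRE match. Sgpl1 has 4 GC boxes in its window, Ugcg has 2 and S1pr2 has a CRE match at base -181 and a GC box at base 9. All 300 bases of the Ugcg window, with both of its GC boxes, lie in annotated exons of Ugcg. Sgpp2 has an E-box and 3 GC boxes, and Sgpp1 matched none of the motifs. Of all 32851 windows, 7.81% hold AP-1, 1.79% CRE, 5.81% NF-kB, 3.47% EGR, 35.7% the GC box and 7.15% the E-box. Counted by gene, since a gene can have several windows, 8.97% of 27025 genes hold AP-1, 2.03% CRE, 38.2% the GC box and 8.09% the E-box. A match describes letters in the window, not bound protein. The 250 bases before a start site are printed for the gene that fell with SHP099, its paralogue and the gene that rose, with complete motif matches in capitals. Sphk1 window 4 is chr11:116532194-116532443 on the plus strand, Sphk2 window 2 is chr7:45715208-45715457 on the minus strand and Sgpl1 is chr10:61147685-61147934 on the minus strand.
Sphk1: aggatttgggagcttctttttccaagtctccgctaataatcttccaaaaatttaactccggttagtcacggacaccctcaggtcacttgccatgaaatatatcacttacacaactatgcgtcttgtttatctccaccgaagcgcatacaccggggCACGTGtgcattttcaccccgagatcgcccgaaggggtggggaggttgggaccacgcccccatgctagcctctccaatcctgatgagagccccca
Sphk2: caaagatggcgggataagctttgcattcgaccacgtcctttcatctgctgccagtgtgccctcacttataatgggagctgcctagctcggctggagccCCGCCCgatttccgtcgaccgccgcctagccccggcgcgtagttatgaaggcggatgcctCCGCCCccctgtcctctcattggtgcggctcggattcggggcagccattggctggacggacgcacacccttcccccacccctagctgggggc
Sgpl1: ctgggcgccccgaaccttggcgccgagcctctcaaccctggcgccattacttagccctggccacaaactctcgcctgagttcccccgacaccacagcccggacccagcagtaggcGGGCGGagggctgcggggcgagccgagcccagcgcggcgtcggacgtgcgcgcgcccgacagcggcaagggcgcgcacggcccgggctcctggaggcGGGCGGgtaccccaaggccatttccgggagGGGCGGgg
The capitals are the E-box in Sphk1 and GC boxes in Sphk2 and Sgpl1. The E-box falls in no annotated exon, and neither do the GC boxes of Sphk2 shown here or the first 2 of Sgpl1.

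Sgpl1 (ENSMUSG00000020097, chr10:61098642-61147703, minus strand) encodes the lyase that ends S1P signalling by cleaving it, and it was the most abundant of the 8 genes in every library. It stood at 549.8, 546 and 567 FPKM in wild type, at 601, 624 and 662 FPKM in M-Shp2-/- and at 730.2, 718 and 673 FPKM with SHP099. The groups again formed 3 tiers without overlap, in the reverse order to Sphk1. The means were 554 ± 11.2, 629 ± 30.6 and 707 ± 29.9 FPKM (SD, n = 3 each), or 113% of wild type in M-Shp2-/- and 128% with SHP099. The narrow spread let a difference of this size pass: Sgpl1 rose with SHP099 by 0.35 (95% confidence interval 0.17 to 0.53, SE 0.08, limma adjusted p = 0.0418). This call was the less firm of the pair. The median tested gene was itself 0.13 higher with SHP099, Sgpl1 exceeded it by 0.22, and under median-of-ratios scaling the difference was 0.20 with an adjusted p of 0.297. The adjusted p was at most 0.05 in 6 of 14 alternatives, over a range of 0.0316 to 0.297, and it was 0.0920 without wild-type library 1, 0.0974 without wild-type library 2, and 0.175, 0.182 and 0.0923 without SHP099 library 1, 2 or 3. In M-Shp2-/- the difference from wild type was 0.18 (95% confidence interval -0.02 to 0.38, adjusted p = 0.478). Under median-of-ratios scaling this M-Shp2-/- difference was 0.02 (limma adjusted p = 0.969), so the middle tier depends on the scaling. M-Shp2-/- minus SHP099 was -0.17 (95% confidence interval -0.35 to 0.02, adjusted p = 0.420).

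Taken as a ratio of FPKM within a library, Sphk1 per 100 FPKM of Sgpl1 was 4.01, 7.86 and 5.92 in wild type, 1.81, 1.74 and 1.45 in M-Shp2-/- and 1.01, 0.755 and 0.980 with SHP099. This ratio of a making to a removing enzyme is a description of RNA levels and was given no test.

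**Figure D3:**
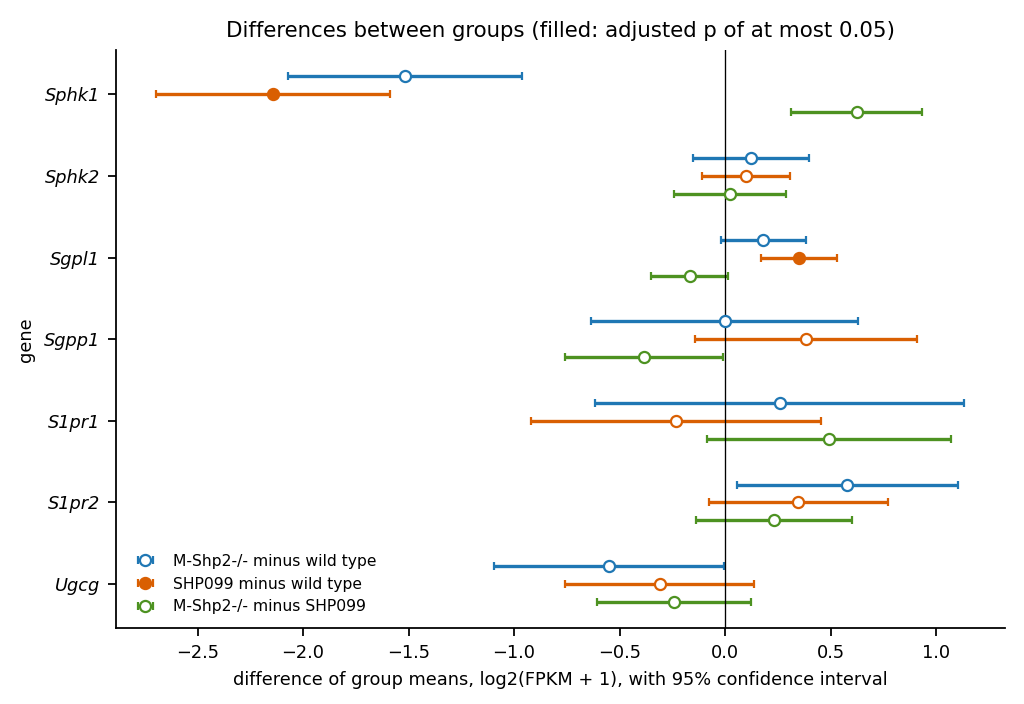
Differences of group means of log2(FPKM + 1) with 95% confidence intervals (x axis) for the 7 tested genes (y axis) in the 3 comparisons of 3 libraries against 3. Filled points mark an adjusted p of at most 0.05, reached by Sphk1 at -2.14 and Sgpl1 at 0.35 with SHP099 against wild type.

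Sgpp1 (ENSMUSG00000021054, chr12:75714249-75735729, minus strand), the main S1P phosphatase of the endoplasmic reticulum, was at 7.90, 15.1 and 14.0 FPKM in wild type, at 10.4, 10.6 and 15.2 FPKM in M-Shp2-/- and at 14.7, 15.8 and 17.1 FPKM with SHP099. Wild-type library 1 was the lowest of the 9 and the groups overlapped in every comparison. The difference was -0.00 for M-Shp2-/- (95% confidence interval -0.63 to 0.63, and -0.17 without M-Shp2-/- library 3) and 0.38 for SHP099 (95% confidence interval -0.15 to 0.91, adjusted p = 0.324). The SHP099 difference ranged from 0.11 to 0.54 when a library was left out. M-Shp2-/- minus SHP099 was -0.39 (adjusted p = 0.394), and it was -0.55 with an adjusted p of 0.0112 without M-Shp2-/- library 3, whose 15.2 FPKM lies among the SHP099 values; over 14 alternatives the adjusted p was 0.0112 to 0.798.

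Sgpp2 (ENSMUSG00000032908, chr1:78310345-78420289, plus strand), the other phosphatase, was close to absent from the libraries, with 4, 5 and 0 reads in wild type, 2, 5 and 2 reads in M-Shp2-/- and 4, 0 and 2 reads with SHP099. These are 24 reads in all, beside a floor of 3 reads (0.0147 to 0.0188 FPKM) that a count of 0 allows, and they are too few to order the groups. Exact two-sided permutation tests gave p = 0.9 for M-Shp2-/- and p = 0.8 for SHP099 against wild type, and p = 0.6 between them, where 0.1 is the smallest p that 3 against 3 libraries can reach. Sgpp2 missed the filter of a mean FPKM of 1 and is the single member of the 8 outside the limma test. Floors of this kind cover counting error only.

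Of the 5 known S1P receptors, S1pr2 (ENSMUSG00000043895, chr9:20962361-20976781, minus strand) had the highest mean FPKM. This receptor, which couples to G12/13 proteins and restrains migration, was at 13.6, 19.4 and 11.8 FPKM in wild type, at 25.6, 24.5 and 17.6 FPKM in M-Shp2-/- and at 18.7, 20.7 and 17.3 FPKM with SHP099. It supplied 83.4%, 72.9% and 82.6% of the summed FPKM of the 5 receptors in wild type, 85.97%, 89.9% and 70.7% in M-Shp2-/- and 84.9%, 89.0% and 86.7% with SHP099. On each gene's longest transcript the S1pr2 shares were lower, 63.4%, 48.0% and 61.97%, then 67.8%, 75.4% and 45.3%, then 65.8%, 73.5% and 69.1%, beside 40.1% for S1pr1 in wild-type library 2 and 43.4% in M-Shp2-/- library 3. M-Shp2-/- libraries 1 and 2 lay above all others, library 3 lay within the wild-type range, and the groups overlapped. The difference was 0.58 for M-Shp2-/- (95% confidence interval 0.05 to 1.10, adjusted p = 0.465) and 0.35 for SHP099 (95% confidence interval -0.08 to 0.77, adjusted p = 0.267). Without M-Shp2-/- library 3, S1pr2 in M-Shp2-/- differed from wild type by 0.74 (adjusted p = 0.225) and from SHP099 by 0.39 (adjusted p = 0.0323), against 0.23 (adjusted p = 0.562) with all libraries; the adjusted p over alternatives was 0.214 to 0.890 and 0.0323 to 0.901 in these comparisons.

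S1pr1 (ENSMUSG00000045092, chr3:115710433-115715072, minus strand), the Gi-coupled receptor best known from lymphocyte exit and the vascular endothelium, was at 2.19, 5.56 and 2.14 FPKM in wild type, at 3.71, 2.51 and 5.79 FPKM in M-Shp2-/- and at 2.64, 2.32 and 2.33 FPKM with SHP099, from 277 to 863 reads. Single libraries, wild-type 2 and M-Shp2-/- 3, were about as high as each other and set apart from the rest, so the spread within these groups exceeded the difference between them. The difference was 0.26 for M-Shp2-/- (95% confidence interval -0.62 to 1.13, adjusted p = 0.731) and 0.01 without M-Shp2-/- library 3. It was 0.61 without wild-type library 2 and 0.36 without both of these libraries. For SHP099 it was -0.23 (95% confidence interval -0.92 to 0.45, adjusted p = 0.658), and it turned to 0.12 without wild-type library 2. M-Shp2-/- minus SHP099 was 0.49 (95% confidence interval -0.09 to 1.07), and 0.25 without M-Shp2-/- library 3. The same 2 libraries held the highest fibroblast and mesothelial marker sums of their groups, 198 and 391 FPKM, but SHP099 library 1 had a sum of 250.2 FPKM with an S1pr1 level of 2.64 FPKM. Of the 6 markers on that list 3 had a mean FPKM of at least 1. The 4 endothelial markers summed to 5.32, 4.16 and 4.56 FPKM in wild type, 4.37, 4.91 and 1.81 FPKM in M-Shp2-/- and 1.67, 1.31 and 1.16 FPKM with SHP099, mostly Kdr, with Emcn at 0 in all libraries. Their part in the S1pr1 levels was not tested.

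**Figure D4:**
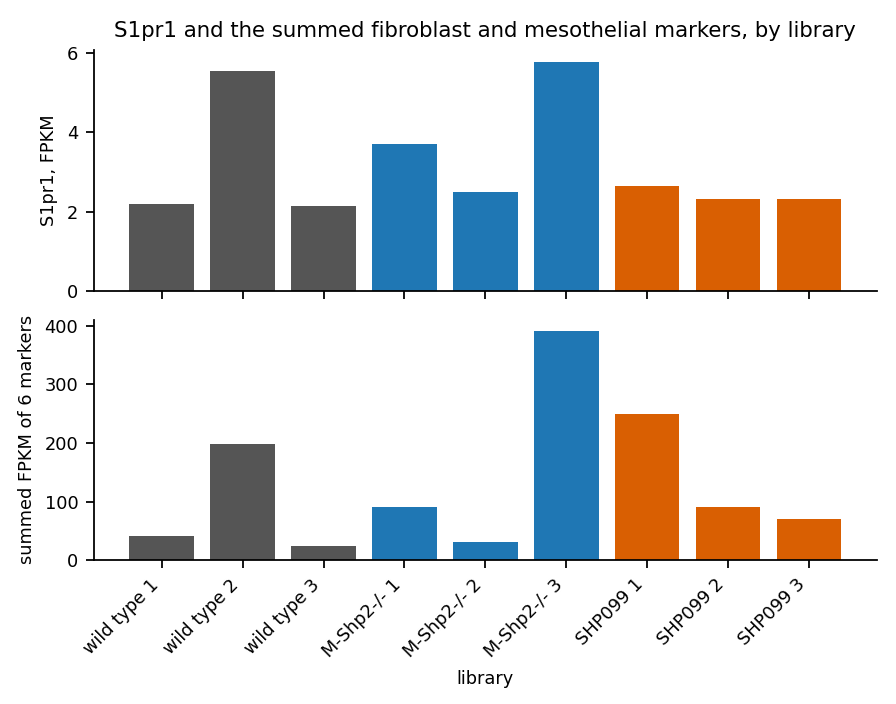
S1pr1 FPKM (top) and the summed FPKM of 6 fibroblast and mesothelial markers (bottom) in the 9 libraries, as bars from 0. Wild-type library 2 and M-Shp2-/- library 3 are high in both panels, at 5.56 and 5.79 FPKM of S1pr1, while SHP099 library 1 has a marker sum of 250.2 FPKM and an S1pr1 level of 2.64 FPKM.

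The other receptors of the family were below the filter. S1pr3 was at 0.283, 1.55 and 0.258 FPKM in wild type, at 0.254, 0.0381 and 1.35 FPKM in M-Shp2-/- and at 0.414, 0.107 and 0.143 FPKM with SHP099, highest in the same 2 libraries as S1pr1. S1pr4 had 153 reads and S1pr5 had 10 reads over the 9 libraries.

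Ugcg (ENSMUSG00000028381, chr4:59189257-59222833, plus strand), which makes glucosylceramide from ceramide and so opens the branch to glycosphingolipids, was at 239, 245 and 387 FPKM in wild type, at 171, 173 and 243 FPKM in M-Shp2-/- and at 231, 206 and 248.6 FPKM with SHP099. Wild-type library 3 stood above the other 8 libraries, and library 3 of M-Shp2-/- was the only one of its group within the wild-type range. The means were 290.2 ± 83.6, 195 ± 41.0 and 229 ± 21.3 FPKM (SD, n = 3 each). The difference was -0.55 for M-Shp2-/- (95% confidence interval -1.10 to -0.01, adjusted p = 0.471) and -0.31 for SHP099 (95% confidence interval -0.76 to 0.14, adjusted p = 0.346). When a library was left out, these ranged from -0.72 to -0.33 (the latter without wild-type library 3) and from -0.43 to -0.09. M-Shp2-/- minus SHP099 was -0.24 (adjusted p = 0.541), and -0.41 with an adjusted p of 0.0248 without M-Shp2-/- library 3, in a range of 0.0248 to 0.890 over 14 alternatives.

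Counted over the 7 tested members, M-Shp2-/- against wild type asked what loss of Shp2 in myeloid cells does. By limma 0 members passed at an adjusted p of 0.05, 0 by voom on recovered reads, and 3 had an unadjusted p under 0.05 (Sphk1, S1pr2 and Ugcg), as did 1204 (10.5%) of all tested genes. Of all 11450 tested genes 10 passed (0.0873%), none higher (0%) and 10 lower (0.0873%), and 1 (0.00873%) met the stricter rule, so that few genes of any kind passed in this comparison. The 10 became 2, 1 and 5 without wild-type library 1, 2 or 3, and 1, 1 and 8 without M-Shp2-/- library 1, 2 or 3; with no filter 11 passed, 5 higher and 6 lower. For 2 members there was no overlap between libraries, Sgpl1 having all M-Shp2-/- libraries higher and Sphk1 all lower. Among all tested genes 19.1% did not overlap, 16% higher and 3.07% lower. The members' median difference was 0.12 against 0.15 for all tested genes, with 4 members above 0 and 3 below. Of all tested genes 77.4% were higher in M-Shp2-/- and 71.2% higher with SHP099 than in wild type, and median-of-ratios scaling brought these medians from 0.15 and 0.13 to 0.01 and -0.00. Relative to the median of all genes, Sphk1 was at -1.67, Ugcg at -0.70, S1pr2 at 0.43, Sgpp1 at -0.15, S1pr1 at 0.11, Sgpl1 at 0.03 and Sphk2 at -0.02.

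SHP099 against wild type asked what inhibition of the SHP2 protein does. Of the 7 tested members 1 rose (Sgpl1) and 1 fell (Sphk1) at an adjusted p of 0.05, both also by voom, and 0 met the stricter rule, by limma or by voom; 2 had an unadjusted p under 0.05, as did 3061 (26.7%) of all tested genes. Of all tested genes 797 (6.96%) passed at 0.05, 521 higher (4.55%) and 276 lower (2.41%), and 19 (0.166%) met the stricter rule. The count of 797 went from 47 without SHP099 library 2 (10 higher, 37 lower) to 1273 without wild-type library 3 (807 higher, 466 lower). It was 90 without SHP099 library 1 (21 higher, 69 lower) and 116 without SHP099 library 3 (42 higher, 74 lower). Without wild-type library 1 it was 284 (133 higher, 151 lower), and without wild-type library 2 it was 399 (226 higher, 173 lower). With no filter 34 were higher and 40 lower, so the direction of the split depends on these choices. Sphk1 and Sgpl1 were also the 2 members without overlap, against 34.6% of all tested genes, 27.9% higher and 6.77% lower; a gene whose SHP099 libraries are all higher, as those of Sgpl1 are, was thus common. The members' median difference was 0.10 against 0.13 for all tested genes. Relative to the median of all genes, Sphk1 was at -2.27, Ugcg at -0.44, S1pr1 at -0.36, Sgpp1 at 0.25, Sgpl1 and S1pr2 at 0.22 each and Sphk2 at -0.03.

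M-Shp2-/- against SHP099 set loss of the gene beside inhibition of the protein. By limma 0 members passed at 0.05, 0 by voom, and 2 had an unadjusted p under 0.05 (Sphk1 and Sgpp1). Of all tested genes 8 (0.0699%) passed, 3 higher (0.0262%) and 5 lower (0.0437%), and 0 (0%) met the stricter rule, 0 also by voom, with 1437 (12.6%) at an unadjusted p under 0.05. The groups did not overlap for Sphk1, higher in M-Shp2-/-, and for Sgpl1, lower, against 17.7% of all tested genes, 7.9% higher and 9.76% lower. Without M-Shp2-/- library 3, 2277 genes passed at 0.05 and 159 met the stricter rule, and 4 members passed at 0.05 (Sgpp1, Sphk1, S1pr2 and Ugcg, with the values given above). Without M-Shp2-/- library 1 or 2 the 8 became 0 and 2, and 0 without any 1 of the SHP099 libraries.

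A wider list of 73 sphingolipid gene symbols, of which all but Cert1 matched a gene, gave 72 genes. Of these, 51 were tested, and they place the members among their neighbours. In M-Shp2-/- against wild type 0 of 51 passed at an adjusted p of 0.05 by limma and 0 by voom. An unadjusted limma p under 0.05 was found for 12 of 51, beside 10.5% of all tested genes. The list's median was 0.17 beside 0.15 for all tested genes. With SHP099 against wild type 7 of 51 rose and 3 fell, beside 4.55% and 2.41% of all tested genes, with a median of 0.18 beside 0.13. An unadjusted limma p under 0.05 was found for 20 of 51, beside 26.7% of all tested genes. Leaving out the members, 6 of 44 rose and 2 fell. The 10 became 6 under median-of-ratios scaling (2 higher, 4 lower), 0 with no filter, and 3, 2, 9, 1, 0 and 1 without wild-type library 1, 2 or 3 or SHP099 library 1, 2 or 3. In M-Shp2-/- against SHP099 0 of 51 passed, 0 by voom, and 12 of 51 had an unadjusted limma p under 0.05, beside 12.6% of all tested genes. Without M-Shp2-/- library 3, 17 of 51 passed (33.3%, beside 19.9% of all tested genes), 13 of them outside the members. No set test was made.

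Lipid phosphate phosphatases act on S1P outside the cell, and 2 of the 3 passed with SHP099 in opposite directions, where 4.55% of all tested genes rose and 2.41% fell. Plpp3 was at 63.4, 90.2 and 61.3 FPKM in wild type, at 62.0, 68.5 and 54.5 FPKM in M-Shp2-/- and at 36.8, 31.6 and 33.1 FPKM with SHP099. All SHP099 libraries lay below all others, and Plpp3 fell by 1.04 from wild type (adjusted p = 0.0192, 0.0110 to 0.110 over 14 alternatives, 10 at most 0.05). M-Shp2-/- minus SHP099 was 0.84 (95% confidence interval 0.59 to 1.10, adjusted p = 0.0744) and 0.93 without M-Shp2-/- library 3 (adjusted p = 0.00250), the 1 of 14 alternatives to pass, in a range of 0.00250 to 0.484. Plpp1 was at 13.4, 16.5 and 22.1 FPKM in wild type, at 19.8, 17.4 and 22.9 FPKM in M-Shp2-/- and at 26.7, 34.2 and 32.2 FPKM with SHP099. It rose by 0.83 (adjusted p = 0.0446, 0.0147 to 0.187 over 14 alternatives, 7 at most 0.05), with all SHP099 libraries above all others. Its exons share 452 bases with Mtrex on the opposite strand, at 30.6 to 42.4 FPKM. Without M-Shp2-/- library 3, Plpp1, Kdsr and Klf2 also passed between M-Shp2-/- and SHP099 (-0.70, -0.79 and -0.85; adjusted p = 0.0127, 0.0116 and 0.0187, with highest values over alternatives of 0.724, 0.809 and 0.767). Plpp2 was at 7.41 to 12.5 FPKM over the 9 libraries and did not pass in any comparison.

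Upstream of S1P, de novo ceramide synthesis had 11 tested genes of 17 listed, of which 2 rose and 1 fell with SHP099, where 6.96% of all tested genes passed. Kdsr, which reduces ketosphinganine, went from a mean of 4.20 to 8.54 FPKM (0.89, adjusted p = 0.0390), and the ceramide synthase Cers5 from 17.3 to 26.1 FPKM (0.57, adjusted p = 0.0351). Sptlc2, a subunit of the first enzyme of the route, went from 86.6 to 68.7 FPKM (-0.33, adjusted p = 0.0446) and was at 72.9 FPKM in M-Shp2-/-. Among 7 tested genes of sphingomyelin turnover, the sphingomyelinase Smpd2 rose from 2.26 to 4.19 FPKM (0.67, adjusted p = 0.0383). Of its exons, 905 bases overlap Mical1 on the opposite strand. Over alternatives, the adjusted p was 0.0345 to 0.176 for Kdsr (at most 0.05 in 5 of 14), 0.0266 to 0.167 for Cers5 (9 of 14), 0.0318 to 0.193 for Sptlc2 (7 of 14) and 0.0352 to 0.178 for Smpd2 (6 of 13).

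Asah1, the acid ceramidase that supplies sphingosine in lysosomes, was the most abundant ceramidase at 276 FPKM over the 9 libraries, and its difference with SHP099 was 0.25 (adjusted p = 0.105), with 0 of 3 tested ceramidases passing (1 at an unadjusted p under 0.05). Of all tested genes 6.96% passed in that comparison and 26.7% had an unadjusted p under 0.05. The ceramide transfer protein Col4a3bp, at 93.2 FPKM, differed by 0.31 (adjusted p = 0.116). In the branch that Ugcg opens, 0 of 5 tested genes of glycosphingolipid synthesis passed with SHP099 (1 at an unadjusted p under 0.05). B4galt5, the lactosylceramide synthase, at 312 FPKM the most abundant, differed by -0.34 (adjusted p = 0.0937). Under median-of-ratios scaling B4galt5 passed at an adjusted p of 0.05. Of 11 tested genes of glycosphingolipid breakdown the sialidase Neu1 rose from 106 to 136 FPKM (0.36, adjusted p = 0.0496, 0.0345 to 0.262 over 14 alternatives, 3 at most 0.05).

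The S1P exporters Spns2 and Mfsd2b and the carrier Apom were below the filter, with 178, 172 and 91 reads over all libraries. Klf2, a transcription factor known to drive S1pr1 in lymphocytes, was at 6.52, 7.59 and 11.4 FPKM in wild type, at 12.6, 8.49 and 17.5 FPKM in M-Shp2-/- and at 18.3, 18.6 and 21.8 FPKM with SHP099. It rose by 1.14 with SHP099 (adjusted p = 0.0236, 0.00610 to 0.116 over 14 alternatives, 7 at most 0.05), while S1pr1 itself had a difference of -0.23 that did not pass.

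**Figure D5:**
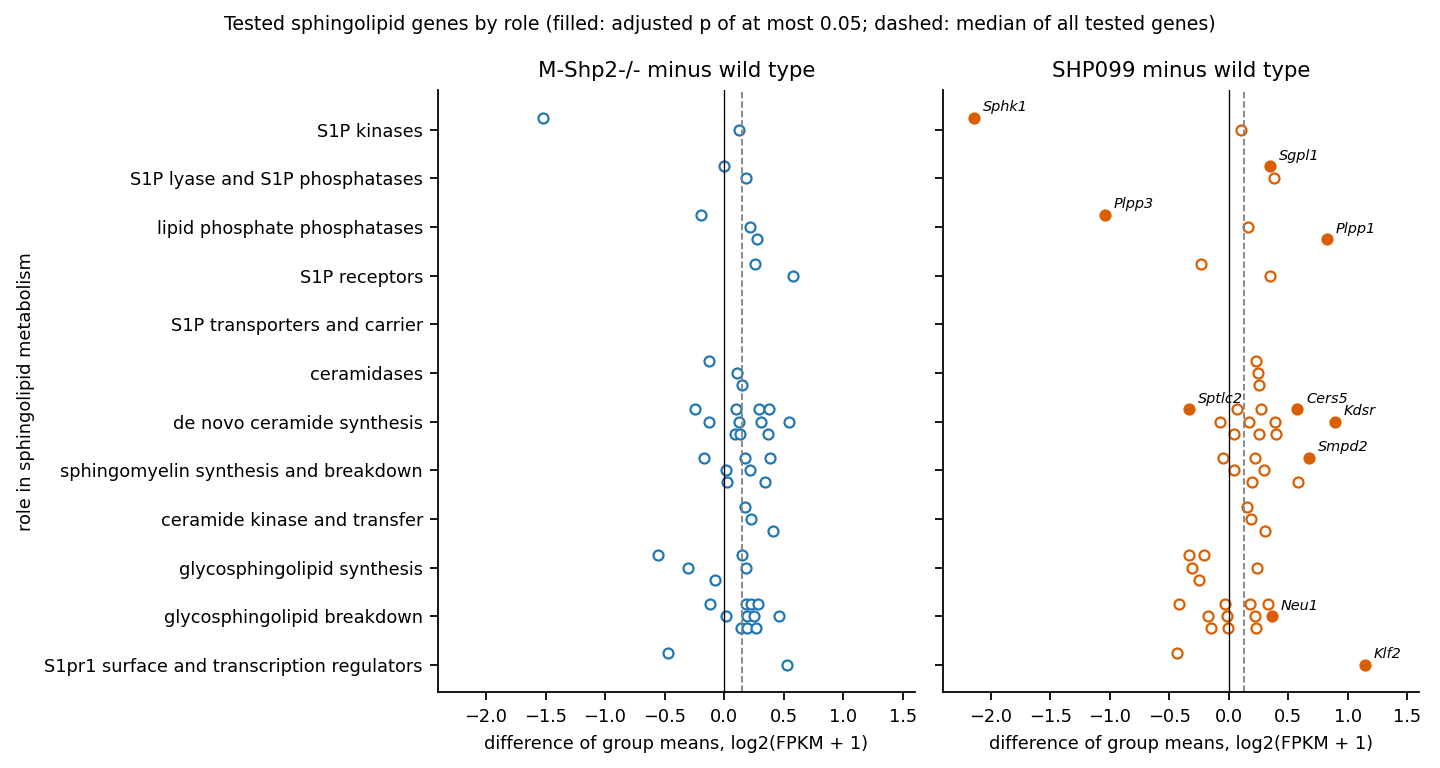
Differences of group means of log2(FPKM + 1) from wild type (x axes) for the 51 tested sphingolipid genes by role (y axis), for M-Shp2-/- (left) and SHP099 (right), 3 libraries a group. Filled points have an adjusted p of at most 0.05, 0 on the left and 10 on the right, and the dashed lines mark the median of all tested genes at 0.15 and 0.13.

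Over the 9 libraries, the tested genes whose log2(FPKM + 1) was most like that of Sphk1 were Flrt3 (Pearson r = 0.982), Gm14023 (0.967), Filip1l (0.965), Plet1 (0.965) and Inhba (0.963). Inhba averaged 192 FPKM in wild type, 63.4 in M-Shp2-/- and 50.8 with SHP099, and Flrt3 24.5, 11.4 and 7.96 FPKM. Exons of Gm14023 overlap Il1a and those of Plet1 overlap Plet1os on the opposite strand, and exons of Gabarapl1 and Wdr62 also overlap genes on the opposite strand. Most like Sgpl1 were Gabarapl1 (0.983), Htatip2 (0.981), Ulk2 (0.981) and Wdr62 (0.977), with Gabarapl1 at 133, 169 and 206 FPKM in the same order of groups. These values describe 9 libraries in 3 groups that share their group differences, so no p is given.

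Exons of 3 members overlap a gene on the opposite strand, and the sources used here do not give the strand setting of the counting. Sphk1 shares 192 bases with Gm29292, which had 17, 13 and 1 reads in wild type, 6, 4 and 1 in M-Shp2-/- and 1, 0 and 1 with SHP099, against at least 329 reads of Sphk1. Sphk2 shares 373 bases with Rpl18, at 563 to 714 FPKM, and 539 bases with Dbp, which had 4 to 54 reads. Sgpp2 shares 248 bases with Farsb, at 25.1 to 50.3 FPKM. The part of these neighbours in the members' values was not tested.

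Some cell type markers also differed between the groups in which Sphk1 and Sgpl1 differ. With SHP099 against wild type 1 of the 7 macrophage markers, Csf1r, rose by 1.38 (limma adjusted p = 0.0222), while the other 6 did not pass (Adgre1 -0.40, Cd14 -0.43, Mertk -0.32, Cd68 -0.14, Itgam 0.09 and Lyz2 0.26). Ccr7 and Kdr, of the dendritic cell and endothelial lists, fell by 1.52 and 1.08 (limma adjusted p = 0.0192 and 0.0406). Each was the only 1 of the 4 markers on its list that could be tested. Of all tested genes 4.55% rose and 2.41% fell in that comparison. The 4 dendritic cell markers summed to 6.11, 3.92 and 3.75 FPKM in wild type, 7.33, 5.07 and 3.43 FPKM in M-Shp2-/- and 1.498, 1.03 and 1.35 FPKM with SHP099. The mean sums in wild type, M-Shp2-/- and SHP099 were 2.14, 0.991 and 4.29 FPKM for T cells (highest Cd3g), 67.3, 65.0 and 62.2 FPKM for neutrophils (S100a8), 3.71, 2.06 and 0.407 FPKM for mast cells (Kit) and 0.438, 0.502 and 0.0204 FPKM for eosinophils (Siglecf). Their part in the Sphk1 and Sgpl1 differences was not tested.

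Several limits apply. Every library was stimulated with IMQ, so no value tells what IMQ itself does to these genes. RNA levels are not enzyme activity, and no S1P or ceramide was measured. With 3 libraries a group, a p above the threshold does not show that a gene did not differ, as for Sphk1 in M-Shp2-/- macrophages. The M-Shp2-/- and SHP099 comparisons share their wild-type libraries. The SHP099 group was compared with cells the study describes as untreated before IMQ, and the order of genes by level depends on the transcript length assumed.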

How the data were processed

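RNA from adherent peritoneal macrophages was sequenced in 9 libraries, 3 each from wild-type mice, M-Shp2-/- mice and wild-type cells given SHP099. The values are FPKM per gene, deposited by the authors as a table of 54059 genes. The submitters' processing notes name CASAVA 1.8 for base calling, HISAT2 2.0.4 for alignment and HTSeq 0.9.1 for counting; the strand setting, genome build, annotation and the tool that computed FPKM were not given in the sources used here. Gene symbols, lengths and exons were taken from GENCODE M21. Reads were recovered from FPKM and the mean transcript length: 96.2% to 96.7% of small values came out as whole numbers within 0.05, where chance gives 10%. A gene at 0 has a floor of 3 reads, 27396 genes were 0 in all libraries and 353 were not in the annotation.

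The test took the 11450 genes whose FPKM averaged 1 or more across all libraries, and was made with limma 3.58.1 (trend, on log2(FPKM + 1)) in R 4.3.3, with the 6 libraries of each comparison in a fit and Benjamini-Hochberg adjustment over all tested genes. The stricter rule is an adjusted p of at most 0.005 with an absolute log2 difference of at least 1, and the second is an adjusted p of at most 0.05; differences are said to rise or fall only under the second. Sgpp2, below the filter, was compared by exact permutation. Confidence intervals are those of limma. Tables and figures were made with Python 3.11.15, numpy 2.4.6, pandas 2.3.3, scipy 1.17.1 and matplotlib 3.10.9.

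Every member is named. Of the wider sphingolipid list, genes at an adjusted p of at most 0.05 in a comparison are named by role, and for a role without any the most abundant gene. Klf2 is on the list as a regulator of S1pr1. Members and lists were chosen with earlier results of these data known. Alternatives were pseudocounts of 0.1 and 5, no filter or a minimum of 5 FPKM, median-of-ratios scaling, all 9 libraries fitted together, a replicate block, voom on recovered reads, and leaving out each library in turn; for shares, FPKM on each gene's longest transcript was added after seeing the data. Replicate numbers do not pair the samples. Some marker and similarity results are not reported here.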

Additional observations from a re-analysis of the deposited data

Results flagged for a closer look

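A difference between groups stood out in 1 result. It concerns Ptpn11, the gene deleted in M-Shp2-/- mice, so its direction follows from the design and serves as a check of the labels. The Ptpn11 differences from wild type, -1.19 in M-Shp2-/- and -0.05 with SHP099, were compared directly, and M-Shp2-/- minus SHP099 was -1.13 on the log2(FPKM + 1) scale (limma adjusted p = 0.0109, 0.00124 to 0.146 over 14 alternatives, 8 at most 0.05), lower in 3 of 3 M-Shp2-/- libraries than in any SHP099 library. Groups of 3 libraries were not tested for single libraries far from the others.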

How the results depend on the processing

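With SHP099 against wild type, Sphk1 stayed lower under all 14 alternatives (-2.39 to -1.69) and Sgpl1 higher (0.20 to 0.38), with an adjusted p of at most 0.05 in 12 and 6 of them. Genes under the stricter rule numbered 19, and 0 with no filter (74 at an adjusted p of 0.05), 9 by voom, 0 with the replicate block, 797 at an adjusted p of 0.05 alone and 0 to 26 when a library was left out. The split of 521 higher and 276 lower became 200 and 375 under median-of-ratios scaling. Members under the stricter rule numbered 0, 1 with all 9 libraries in a fit and 2 at an adjusted p of 0.05 alone.

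In M-Shp2-/- against wild type, Sphk1 stayed lower under 15 alternatives (-1.77 to -1.25). The gene count was 1, and 0 with no filter, 3 under median-of-ratios scaling, 2 with all 9 libraries, 0 with the block, 10 at an adjusted p of 0.05 alone and 0 to 0 when a library was left out. Leaving out both libraries with the highest stromal marker sum, chosen after seeing the data, gave 0, with Sphk1 at -1.25. In M-Shp2-/- against SHP099 the count was 0, 1 with all 9 libraries, 8 at an adjusted p of 0.05 alone and 0 to 159 when a library was left out.

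On each gene's longest transcript, chosen after seeing the data, the mean Sphk1 share of kinase FPKM was 37.4%, 15.2% and 10.04% in wild type, M-Shp2-/- and SHP099 and the S1pr2 share of receptor FPKM 57.8%, 62.8% and 69.5%.

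Signs reversed in 11 cases. Sphk2 went to -0.030 (M-Shp2-/-) and -0.041 (SHP099) under median-of-ratios scaling, and to -0.00, -0.049 and -0.04 against SHP099 without M-Shp2-/- library 1, M-Shp2-/- library 3 or SHP099 library 2 (-0.049 to 0.12). Sgpp1 in M-Shp2-/- ranged from -0.27 to 0.16 when a library was left out, with 0.16, 0.11, 0.09 and 0.07 above 0. Plpp3 in M-Shp2-/- was 0.064 with the stromal libraries left out, and S1pr1 with SHP099 was 0.12 without wild-type library 2 (-0.42 to 0.12 when a library was left out). The cause was not tested. Of the other values 584 kept direction and side of the threshold, 8 passed it newly and 79 no longer did. Where a group kept 2 libraries, limma pooled the spread.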
